A study of Homo sapiens with 19 samples.

Results

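RPL22 and its paralog RPL22L1 encode a protein of the large subunit of the cytosolic ribosome and a closely related protein that can take its place. They are 2 of the 19775 genes that the array measures with a probe set of their own. All probe sets that the platform annotation assigns to either of them and to no other gene were taken, which gave 5 for RPL22 and 1 for RPL22L1, 6 of the 54675 on the array. The pair was chosen on a measured value of these arrays, the higher RPL22L1 level in microsatellite unstable lines, so the contrast between the groups is given for both genes as a description with no test.

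The samples were 19 Affymetrix arrays of total RNA from 10 established human colorectal cancer lines. They were grown untreated in 1 serum medium and collected while dividing exponentially. By their labels RKO, SW48, HCT116, LIM2405 and LS174T are microsatellite unstable (MSI), meaning that lengths of short DNA repeats change after loss of mismatch repair. HT29, T84, CACO2, SKCO1 and HCC2998 are microsatellite stable (MSS). Each line had 2 arrays, labelled as replicates E1 and E2, except T84 with 1, which gave 10 MSI and 9 MSS arrays. The labels name no agent or engineered allele, and the lines differ in much besides MSI status, with 5 lines to stand for each.

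RPL22 is not needed for the basic work of the ribosome in mouse, where its loss leaves most tissues intact, and the protein also binds RNA outside the ribosome. In mouse cells RPL22 holds down the level of RPL22L1, and loss of RPL22 is followed by more RPL22L1. RPL22 also holds a run of adenines in its coding sequence that is a known site of frameshift mutation in MSI colorectal and other cancers. Mutations of the lines were not analysed here.

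RPL22 (Entrez gene 6146) lies on chromosome 1 at 6185020 to 6199595 and RPL22L1 (Entrez gene 200916) on chromosome 3 at 170864875 to 170870195, both on the minus strand, in the RefSeq annotation of GRCh38.p14. The 250 bases before each annotated transcript start are shown so that the control regions of the paralogs can be compared. They are written 5′ to 3′ on the strand of the gene, and capitals mark the letters TATAAA, the core of the TATA box at which transcription can be placed. They come from RefSeq.

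RPL22, chr1:6199596-6199845: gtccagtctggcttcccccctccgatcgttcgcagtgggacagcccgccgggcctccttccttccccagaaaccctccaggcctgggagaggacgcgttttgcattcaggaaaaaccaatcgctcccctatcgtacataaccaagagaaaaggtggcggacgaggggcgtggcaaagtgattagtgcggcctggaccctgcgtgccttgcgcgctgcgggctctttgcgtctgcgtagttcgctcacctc

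RPL22L1, chr3:170870196-170870445: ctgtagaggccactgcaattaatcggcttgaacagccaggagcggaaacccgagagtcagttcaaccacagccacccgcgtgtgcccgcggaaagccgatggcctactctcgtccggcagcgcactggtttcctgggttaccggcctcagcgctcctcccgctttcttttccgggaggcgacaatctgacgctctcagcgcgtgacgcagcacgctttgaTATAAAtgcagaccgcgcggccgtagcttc

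The RPL22L1 window held TATAAA once, starting 30 bases before the transcript start, and the RPL22 window held it on neither strand. Of 35116 annotated promoter windows of this length, 10.7% held it on either strand. The other letters searched on both strands, CCGGAAG for ETS factors, AAGATGG for YY1 and CACGTG for E-box factors, were in neither window, against 8.52%, 3.70% and 6.34% of all windows. Outside the window, AAGATGG was found on the strand of RPL22L1 25 bases after its transcript start. The windows were alike in composition, with 61.6% G or C and 20 CG pairs for RPL22 and 60.8% and 25 for RPL22L1, against medians of 58.0% and 11. No measurement of these samples bears on the promoters.

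Across the series, duplicate arrays of a line correlated over probe sets at r of 0.978 to 0.996. The 7 colon epithelial markers ranged from 3.95 to 14.49 log2 over the lines, and RKO was the lowest line for 5 of them, with EPCAM at 6.15, CDH1 at 3.95 and KRT18 at 12.81. Their part in the RKO values of the paralogs was not tested. Measured markers of leukocytes, endothelium and fibroblasts, 7 in all, lay at 3.82 to 8.09. The difference between 3′ and 5′ control probe sets is a measure of RNA integrity. As a mean per line it ran from 0.08 to 0.55 log2 in MSI and 0.03 to 0.67 in MSS lines for GAPDH. It overlapped between the groups for ACTB as well.

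RPL22L1 was the more variable of the pair and followed the labels. On the log2 scale of the deposited values its probe set read 12.96 and 12.91 in HCT116, 12.73 and 12.93 in SW48, 13.09 and 12.39 in RKO, 12.56 and 12.46 in LS174T, and 12.11 and 11.97 in LIM2405. In the MSS lines it read 11.37 and 11.07 in HT29, 11.01 and 11.01 in SKCO1, 11.05 and 10.84 in HCC2998, 10.56 in T84, and 9.39 and 10.16 in CACO2. Every MSI array lay above every MSS array, with LIM2405 the lowest MSI line and CACO2 the lowest of all.

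The mean level of RPL22L1 was 12.61 ± 0.35 log2 in MSI and 10.70 ± 0.57 in MSS lines (SD, n = 5 lines each). The MSI mean lay 1.91 ± 0.28 log2 above the MSS mean (SE), which is 3.75-fold. Over all probe sets, 1.52% likewise had all 5 MSI lines above all 5 MSS lines, and 0.189% passed limma's test of this contrast at an adjusted p of 0.05. Nothing is read from these shares for RPL22L1, which was picked with the contrast known. In bulk RNA, fewer cells with the transcript and less of it per cell cannot be told apart. The 7 colon epithelial markers lay on average lower in MSI lines, with differences from -0.48 log2 for KRT18 to -3.67 for VIL1. Of these, 0 passed limma's adjusted threshold over genes, with 1 (VIL1) at an unadjusted p under 0.05. RKO was the lowest line for 5 of the 7. EPCAM and CDH1 read 6.15 and 3.95 in RKO and at least 12.85 and 11.94 in the other MSI lines. The part of the 7 markers in the RPL22L1 difference was not tested.

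**Figure D1:**
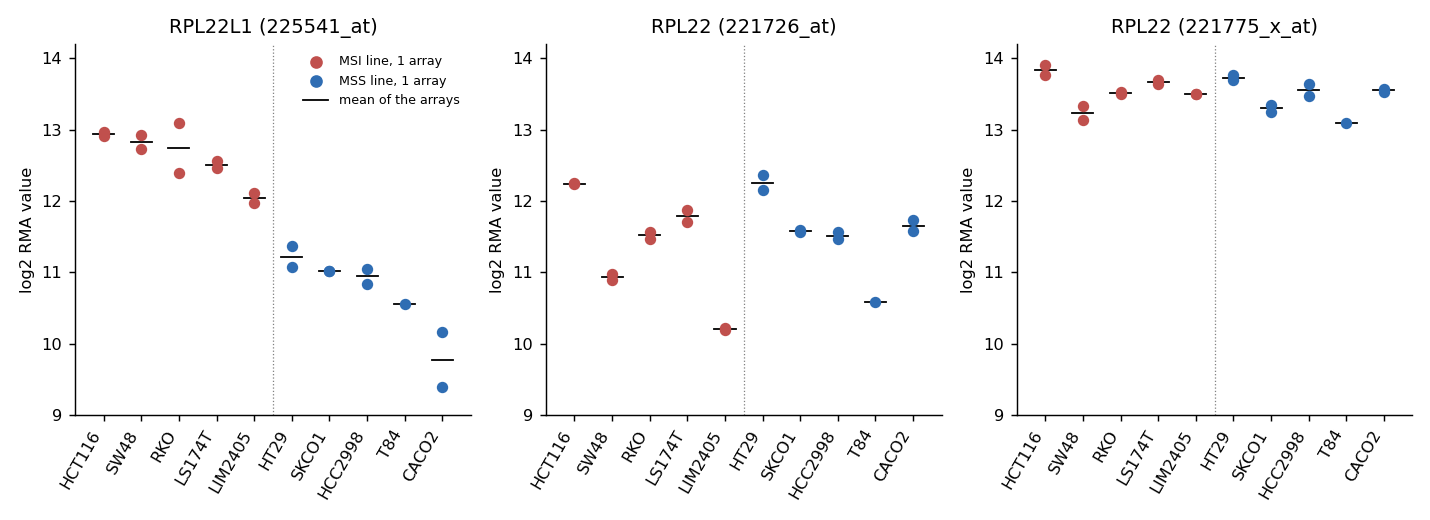
Log2 RMA value (vertical axis, the same in each panel) of the RPL22L1 probe set, of the _at and of the brightest _x_at probe set of RPL22 in 10 lines (horizontal axis), with 1 point per array, red for MSI and blue for MSS lines, and a bar at the mean of the arrays of a line. RPL22L1 separates the groups at 11.97 log2 and above against 11.37 and below, and both RPL22 probe sets overlap.

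RPL22 itself did not follow the labels. Its 5 probe sets are told apart by their suffixes. The probe set with the plain suffix _at, which marks probes designed to match 1 transcript, read 12.25 and 12.23 in HCT116, 11.87 and 11.71 in LS174T, 11.47 and 11.57 in RKO, 10.98 and 10.89 in SW48, and 10.21 and 10.20 in LIM2405. In the MSS lines it read 12.37 and 12.15 in HT29, 11.73 and 11.57 in CACO2, 11.57 and 11.59 in SKCO1, 11.47 and 11.56 in HCC2998, and 10.59 in T84. LIM2405 and T84 were low and HT29 and HCT116 high, 1 of each status. The mean of the _at probe set was 11.34 ± 0.79 log2 in MSI and 11.52 ± 0.60 in MSS lines (SD, n = 5 each), and the difference of -0.18 ± 0.41 (SE) was smaller than its error.

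The brightest RPL22 probe set, 1 of 3 with the suffix _x_at, read from 13.10 in T84 to 13.91 in an HCT116 array. It differed by 0.10 ± 0.15 log2 between MSI and MSS lines (SE), at 13.55 ± 0.23 and 13.45 ± 0.25 (SD, n = 5 each). The other _x_at probe sets differed by 0.12 ± 0.16 and 0.08 ± 0.14, and the _s_at probe set by -0.07 ± 0.39 (SE). In none of the 5 did the groups separate, while 2.70% of all probe sets separated them in either direction.

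The 5 RPL22 probe sets share their target gene and are not replicates of each other, and they fell into 2 kinds. The 3 with the suffix _x_at, whose probes can match near-identical sequences such as processed copies of ribosomal protein genes, lay at 13.36 to 13.50 log2, above 99.6% of all probe sets. Their line means correlated at Pearson's r of 0.994 to 0.996 over 10 lines and spanned 0.68 to 0.82 log2. The _at and _s_at probe sets lay at 11.43 and 11.12, correlated at 0.85 and spanned 2.05 and 1.89. Between the kinds r ran from 0.60 to 0.75. These correlations are descriptions over lines that share 1 normalization.

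The line that set the kinds apart most was LIM2405. Its deviation from the mean of the 10 lines was -1.22 log2 in the _at probe set and -0.81 in the _s_at probe set, but between -0.04 and 0.00 in the _x_at probe sets. LS174T lay at -0.42 in the _s_at probe set and at 0.14 to 0.36 in the other 4. T84 was below the mean in all 5, from -0.99 to -0.38, and HCT116 and HT29 were above it in all 5.

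**Figure D2:**
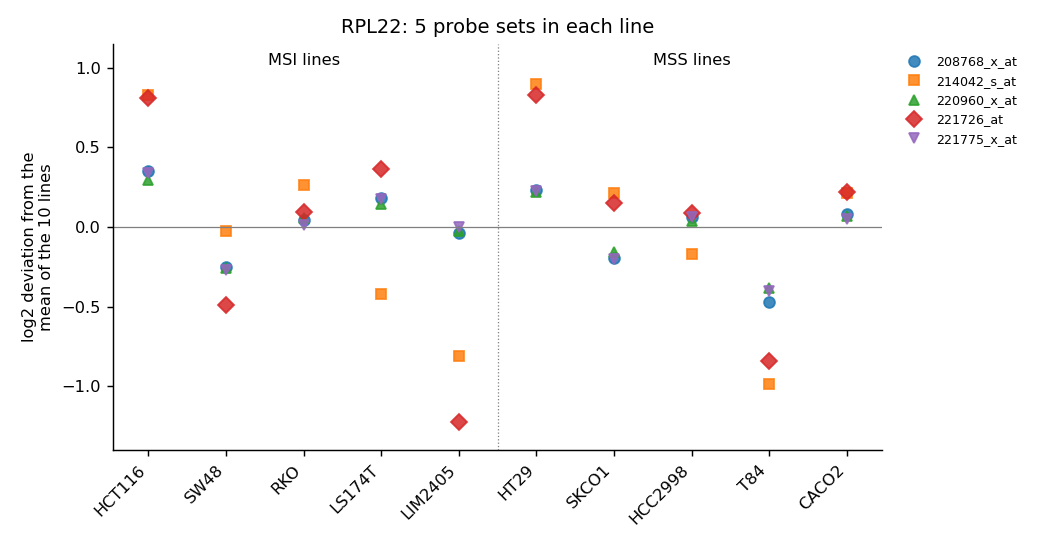
Deviation of each line mean from the mean of the 10 lines (vertical axis, log2) for the 5 RPL22 probe sets (marker shapes) in each line (horizontal axis, MSI lines left of the dotted line, MSS lines right). The _x_at probe sets lie close together and within 0.47 log2 of 0, and in LIM2405 the other probe sets lie at -1.22 and -0.81.

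Lines of the same status differed in both genes when set against the spread between duplicate arrays. In limma's F test over all probe sets, 49.2% differed between the 5 MSI lines and 45.3% between the 5 MSS lines, so a call here is common. All 5 RPL22 probe sets passed within both statuses, with the smallest adjusted p for the _at probe set, whose line means spanned 2.03 log2 among MSI lines (adjusted p = 1.42e-07, limma) and 1.67 among MSS lines (adjusted p = 1.43e-05, limma). The _x_at probe sets spanned 0.55 to 0.61 log2 among MSI and 0.60 to 0.70 among MSS lines, and 2 of the 3 lost their call among MSI lines without SW48 (adjusted p = 0.0979 and 0.064, limma). The same 2 lost it among MSS lines when each status was fitted on its own arrays (adjusted p = 0.0697 and 0.0617, limma). RPL22L1 spanned 1.45 log2 among MSS lines (adjusted p = 0.00197, limma) and 0.89 among MSI lines (adjusted p = 0.0449, limma). Without CACO2 the RPL22L1 call among MSS lines was lost (adjusted p = 0.196, limma). That among MSI lines was lost without LIM2405 (0.567), without HCT116 (0.0838) and without SW48 (0.0510), and also when array medians were centred (adjusted p = 0.0558, limma). The labels call the 2 arrays of a line replicates E1 and E2 and give no more of their origin, so these p-values measure only the spread between duplicates, which may be technical.

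In order of the RPL22L1 level the lines ran HCT116, SW48, RKO, LS174T, LIM2405, HT29, SKCO1, HCC2998, T84 and CACO2. Of the 9 steps between neighbours, that of 0.82 from LIM2405 to HT29 parts the groups and is given without a limit. The pair was chosen on that contrast. Of the steps within a group, only that of 0.78 from T84 to CACO2 exceeded the 95% limit that the pooled SD of 0.27 log2 between duplicates sets. The limit is not adjusted for the number of steps. The other neighbours within a group did not differ beyond their spread. Duplicates were farthest apart in CACO2 and RKO. For RPL22 by its _at probe set the order was HT29, HCT116, LS174T, CACO2, SKCO1, RKO, HCC2998, SW48, T84 and LIM2405, and 4 of 9 steps exceeded the limit at a pooled SD of 0.084. They were those from HCT116 to LS174T (0.45), HCC2998 to SW48 (0.58), SW48 to T84 (0.35) and T84 to LIM2405 (0.38). HT29 and HCT116 were not separated, nor were the neighbours from LS174T to HCC2998.

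The levels of the paralogs were next set against each other over the 10 lines. In mouse the loss of RPL22 raises RPL22L1, and an inverse relation of the RNA levels would show as a fall from left to right in the plot of the paralogs. These values are RNA levels and do not show loss of the protein, so they cannot test the mouse relation. With the brightest _x_at probe set Pearson's r was 0.27 and Spearman's rho 0.26 over 10 lines. Without HCT116 and T84, the lines farthest from the median of RPL22, r was -0.20 and rho -0.33 over 8 lines, so the sign rested on those lines. The other _x_at probe sets gave r of 0.28 and 0.25, and 0.37 for both without SW48 and T84, which are farthest from the median there. With the _at probe set r was 0.06 and rho 0.16, and without LIM2405 and T84 r was -0.07 and rho 0.05. The _s_at probe set gave r of 0.15 and rho of 0.30, and -0.003 and 0.21 without LIM2405 and T84. The lines share 1 normalization, and the MSI and MSS lines form separate clusters in RPL22L1 with 5 lines each, too few for an r within 1 status to be given.

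After each value was taken as its deviation from the mean of its status, r was 0.13 with the brightest _x_at and 0.46 with the _at probe set. Spearman's rho of these deviations was 0.44 and 0.54. For the _s_at probe set r was 0.49 and rho 0.61. The other _x_at probe sets both gave r of 0.14, with rho of 0.33 and 0.35. LIM2405, the MSI line with the lowest RPL22 in the _at probe set, also had the lowest RPL22L1 of the MSI lines, and HCT116 had the highest of both. Among MSS lines HT29 had the highest of both. CACO2, with the lowest RPL22L1 of all 10 lines, had an RPL22 level of 11.65 log2 in the _at probe set, above the MSS mean. SW48 and T84 had RPL22 levels of 10.93 and 10.59 in that probe set, and RPL22L1 levels of 12.83 and 10.56.

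**Figure D3:**
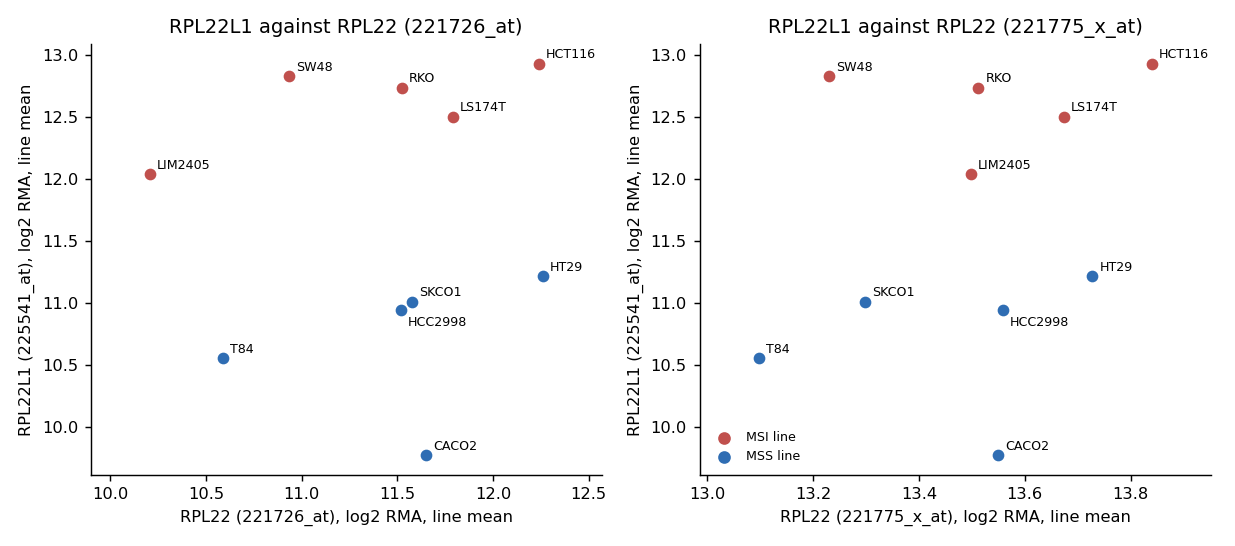
Line means of RPL22L1 (vertical axis, log2 RMA) against RPL22 (horizontal axis, log2 RMA, different ranges) by its _at and its brightest _x_at probe set, with 1 point per line, red for MSI and blue for MSS. The MSI lines form a band at 12.04 to 12.93 and the MSS lines one at 9.78 to 11.22 over nearly the same range of RPL22, and r is 0.06 and 0.27 over the 10 lines.

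The other proteins of the cytosolic ribosome were compared as a group. Of 78 genes for the large and small subunit, 52 had a probe set of their own and the others were not analysed here. None was called different between MSI and MSS lines by limma, against 0.0455% of all 19775 genes. At an unadjusted p under 0.05, 0 were higher and 1 was lower, against 9.77% of all genes in either direction. The median difference of the 52 genes was 0.07 log2, equal to the 0.07 of all genes, and the range was -0.86 to 0.38.

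Of the 31 large subunit genes RPL36A, RPL36 and RPL3 differed most, by -0.86, 0.38 and 0.31 log2 (adjusted p = 0.431 to 0.635, limma), and the list median was 0.11. Of the 21 small subunit genes RPS10, RPS12 and RPS6 differed by 0.20, 0.16 and 0.12 (adjusted p = 0.524 to 0.870, limma), with a list median of 0.06. RPL36A is read by a dim probe set at 6.19 log2, as are RPLP2 and RPL27A at 6.43 and 8.63, while the other cytosolic genes lay above 13 log2. The median span of the 52 genes over the 10 lines was 0.51, at a median level of 14.14 log2, where the highest value of any probe set is 14.92. Lines of one status differed in limma's F test for 15 of the 52 genes among MSI lines, against 58.0% of all genes, and for 22 among MSS lines, against 52.9%.

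**Figure D4:**
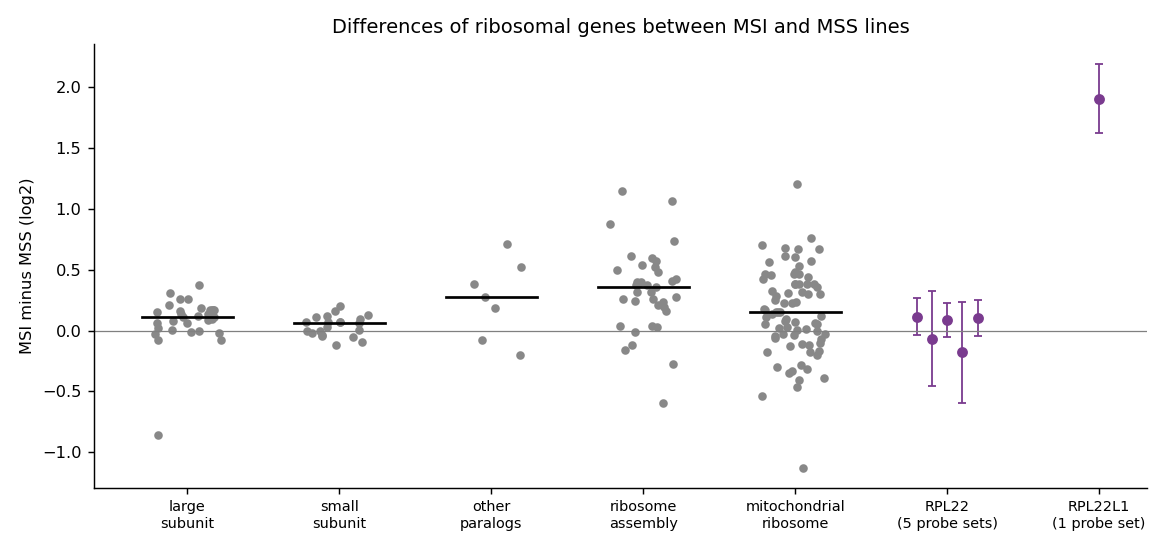
MSI minus MSS difference (vertical axis, log2) of each gene (grey points) in 5 gene lists with the list median (black bar), and of the probe sets of RPL22 and RPL22L1 (purple points) with the SE of limma. The medians of the lists lie between 0.06 and 0.36, the RPL22 probe sets between -0.18 and 0.12 and RPL22L1 at 1.91.

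Most of the cytosolic ribosomal genes correlated positively with either paralog over the 10 lines. With the _at probe set of RPL22, 40 of 52 cytosolic ribosomal genes had an r above 0 (76.9%, median 0.32), against 56.9% of all genes (median 0.06). With RPL22L1 40 of 52 also did (median 0.32), against 64.7% of all genes (median 0.17). T84, low in RPL22, was the lowest line for 18 of the 52 genes, the most of any line, and HCT116, high in RPL22, was the highest for 10. T84 rests on 1 array, whose 3′ to 5′ differences were 0.67 log2 for GAPDH and 1.90 for ACTB. The line means of the other MSS lines were lower, but the E2 array of HT29 reached 0.74 for GAPDH. Line means of the MSI lines reached 0.55 and 2.31, and their single arrays 0.58 (RKO E1) and 2.81 (LS174T E1). The part of RNA integrity in the T84 values was not tested. The mean deviation of the 52 genes was -0.11 log2 in T84 and in LIM2405 and 0.11 in HCT116. Genes and lines are not independent here, and these counts are descriptions.

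RPL22L1 is 1 of several paralogs of ribosomal proteins, and the other 7 measured are given here by their own values. None was called by limma between MSI and MSS lines, and 2 had an unadjusted p under 0.05, against 9.77% of all genes. RPS27L, known as a target of p53, averaged 12.26 ± 0.10 log2 over the MSI and 11.54 ± 0.66 over the MSS lines (SD, n = 5 each, adjusted p = 0.451, limma), with all MSI lines above all MSS lines, as in 2.59% of all genes in either direction. Its lowest line was HCC2998 at 10.44 log2. RPL26L1 lay at 10.90 ± 0.30 and 10.39 ± 0.31 (adjusted p = 0.400, limma), and RPL7L1, a homolog of RPL7, differed by 0.38 (adjusted p = 0.652, limma). RPL39L was dim, at 4.57 on average where the median of all array values is 5.67, and was highest in LS174T at 6.23. RPL3L, a muscle paralog of RPL3, stayed between 4.76 and 5.17.

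Factors that build ribosomes were mostly higher in MSI lines without passing the test. Of 37 measured genes 32 had a difference above 0, 0 were called, 5 were higher and 0 lower at an unadjusted p under 0.05, and the median difference was 0.36 log2 against 0.07 of all genes. Over all 19775 genes 12718 had a difference above 0, and 1337 were higher and 595 lower at that unadjusted p. WDR43, a protein of small subunit assembly, averaged 10.63 ± 0.31 log2 in MSI and 9.48 ± 0.55 in MSS lines (SD, n = 5 each, adjusted p = 0.225, limma). It was the only 1 of the 37 whose groups did not overlap, as in 2.59% of all genes in either direction. SDAD1 and RRN3, an initiation factor of RNA polymerase I, differed by 1.07 and 0.87 (adjusted p = 0.318 and 0.368, limma). Their r with RPL22L1 over the 10 lines was 0.77, 0.70 and 0.73, values that share the contrast of the labels.

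Ribosomal proteins that are free of ribosomes bind MDM2 and so raise p53, and genes of that link were read beside the paralogs. Of 6 measured genes 0 were called by limma and 2 had an unadjusted p under 0.05, both higher in MSI lines, where 1337 of all 19775 genes were higher and 595 lower at that p. MYC, a driver of ribosome synthesis, differed by 1.04 log2 (adjusted p = 0.416, limma). Its level was highest in RKO at 13.20 and lowest in CACO2 at 10.27, the line with the least RPL22L1. The r of MYC with RPL22L1 was 0.88 over 10 lines, a value that shares the contrast of the labels. MDM2 differed by 0.66 (adjusted p = 0.491, limma). NPM1, a nucleolar chaperone, differed by 0.03, and RPL11, a ribosomal protein that binds MDM2, by 0.14.

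RNAs that other work has tied to RPL22 or RPL22L1 were read as a further list of 4. MDM4, a partner of MDM2 whose splicing has been tied to the paralogs in human cancer cells, differed by 0.36 log2 (adjusted p = 0.743, limma), and was lowest in CACO2 at 8.63, the line with the least RPL22L1. SMAD1, which RPL22 holds down in zebrafish blood formation, averaged 9.29 ± 0.34 log2 in MSI and 8.12 ± 1.42 in MSS lines (SD, n = 5 each, adjusted p = 0.571, limma), with CACO2 again lowest at 5.77. SMAD2, spliced under control of both paralogs in zebrafish, differed by 0.66 (adjusted p = 0.770, limma). LIN28B, raised after loss of RPL22 in mouse T cells, lay at 8.58 in CACO2 and at 3.64 to 3.89 in the other 9 lines. None of the 4 had an unadjusted p under 0.05. Splicing was not measured by these values.

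Genes beside the paralogs on the chromosome were compared in the same way. The 5 nearest genes with a probe set on each side were taken. Of the 10 neighbours of RPL22L1, 0 were called by limma, 3 had an unadjusted p under 0.05 and 0 separated the groups, against 0.0455%, 9.77% and 2.59% of all genes. EIF5A2, a translation factor gene next to RPL22L1, differed by 0.55 log2 (adjusted p = 0.632, limma). PRKCI, SKIL, TNIK and PLD1 lay lower in MSI lines, with differences of -0.21, -1.31, -1.08 and -0.97 (adjusted p = 0.371 to 0.892, limma). The r of the 10 with RPL22L1 over the lines ran from -0.62 for SLC2A2 to 0.58 for SLC7A14-AS1, both dim at 3.85 and 3.84 on average.

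The 10 neighbours of RPL22 differed by -0.05 to 0.71 log2, with 0 called by limma and 0 at an unadjusted p under 0.05, against the same shares of all genes. Their r with RPL22 by the brightest _x_at probe set ran from -0.30 for GPR153 to 0.66 for CHD5, a chromatin remodeller. NPHP4, a protein of the cilium, was lowest in LIM2405 at 5.29 and highest in HT29 at 7.48, the lines at the ends of the order of RPL22 by its _at probe set. Copy number was not measured.

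The genes most like each paralog were ranked by Pearson's r over the 10 line means, among 11762 genes that spanned at least 1 log2. For RPL22 by the brightest _x_at probe set the highest r were those of BORCS7, a subunit of a complex that places lysosomes (0.90), TMEM230 (0.89), TXNDC17 (0.87), KBTBD3 (0.87) and CBR4, a mitochondrial reductase (0.87). The lowest were those of KNL1, a scaffold of the kinetochore (-0.87), the amino acid transporter gene SLC7A8 (-0.86), ITGA9-AS1 (-0.86), ATP13A1 (-0.85) and ZNF630 (-0.85). None of these 10 genes separated MSI from MSS lines. T84, with 1 array and the lowest level in this RPL22 probe set, was also lowest in BORCS7, TXNDC17 and CBR4. It was highest in KNL1, SLC7A8, ITGA9-AS1 and ATP13A1, and its part in these r was not tested. TMEM230 and KBTBD3 were lowest in SW48, and ZNF630 was highest in SKCO1. In limma's F test KNL1 was called within neither status (adjusted p = 0.372 and 0.204), and TXNDC17 not between MSS lines (adjusted p = 0.253). ITGA9-AS1 and KBTBD3 are dim, at 4.53 and 5.76 log2.

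For RPL22L1 the highest r were those of the metallothionein gene MT1E (0.95), RBPJ, the DNA-binding factor of Notch signalling (0.94), MT1X (0.94), CRLF3 (0.93) and BICD2, an adaptor of dynein (0.92). The lowest were those of SLC15A2, a peptide transporter (-0.95), PURA (-0.93), NEURL3 (-0.93), the endocytic receptor gene LY75 (-0.92) and KALRN (-0.92). Apart from RBPJ these 10 genes separated MSI from MSS lines, so the ranking shares the contrast of the labels. CACO2, the lowest line in RPL22L1, was also lowest in MT1E, RBPJ, MT1X and BICD2. It was highest in SLC15A2, NEURL3, LY75 and KALRN, and its part in their r was not tested. In limma's F test NEURL3 was not called between MSI lines (adjusted p = 0.287), nor RBPJ between MSS lines (adjusted p = 0.224). The others were called within both statuses. On deviations from the mean of each status, pooled over the 10 lines, r with RPL22L1 was farthest from 0 among these 10 for NEURL3 (-0.87), RBPJ (0.84) and SLC15A2 (-0.77). It was 0.69 for MT1E. The genes were picked by r over the same line means, so these values are not independent of the ranking. RBPJ differed by 0.73 log2 between the groups (adjusted p = 0.241, limma).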

How the data were processed

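The authors deposited 1 log2 value per probe set and array, made with RMA per the submitters' processing notes, a method that removes background, quantile-normalizes and condenses probes. The RMA version is not given in the sources used here. Values run from 2.78 to 14.92, which fits that scale. Arrays have no read depth, so precision is set by how many lines there are. Of 54675 probe sets, 62 controls were left out and 54613 tested. A gene was represented by its brightest single-gene probe set (19775 genes), named by the platform annotation and RefSeq.

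Duplicates were averaged to 1 value per line, and limma 3.58.1 (R 4.3.3) set 5 MSI against 5 MSS lines, calling Benjamini-Hochberg adjusted p under 0.05. Lines within a status were compared with limma's F test on all 19 arrays. Both fits were tested on simulated data. The rule for named genes took both paralogs, the 5 genes most and least like each, 5 neighbours on each side, and the called or 3 most different genes of each list. The members and lists were chosen with earlier results of these data known. Replicate numbers E1 and E2 were not used to pair lines: differences of duplicates correlated between lines at r of -0.21 to 0.27.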

Additional observations from a re-analysis of the deposited data

Results flagged for a closer look

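None of the 12 groups formed by the 6 probe sets of RPL22 and RPL22L1 in either status had a line that stood apart by Dixon's ratio of its gap to the range of the group. Among the 40 other genes named as neighbours or as most like a paralog, 7 groups of 5 lines did, and chance gives about 1 in 20 of such groups. Among MSI lines SW48 was high in SLC7A8 at 9.44 log2, LS174T was high in KALRN at 7.76 and in SLC7A14-AS1 at 4.27, HCT116 was high in CHD5 at 6.77 and low in EIF5A2 at 7.11, and LIM2405 was low in NPHP4 at 5.29. Among MSS lines CACO2 was high in SLC2A2, a glucose transporter gene, at 6.82, with the next line at 3.64.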

How the results depend on the processing

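The MSI minus MSS difference of RPL22L1 was 1.68 (without CACO2) to 2.05 log2 (without LIM2405) over 17 alternatives, and 1.84 after centring on the other ribosomal genes. Those of the 5 RPL22 probe sets stayed between -0.41 and 0.19 and changed sign in some, within 1 SD between lines. The r of RPL22 by its brightest _x_at probe set with RPL22L1 ran from 0.04 to 0.50 over these alternatives. It was -0.20 when both HCT116 and T84 were left out, so its sign was not stable. Over all probe sets 103 were called, with 47 in replicate E2 alone, which leaves out T84, 29 (without RKO) to 261 (without CACO2) when 1 line was left out, fewer by over 1.5 times also without HCT116, SW48, HCC2998, HT29 or SKCO1, and 1153 on all arrays with the line as a random block. With the replicate number as a replicate block as well there were 1006, and the RPL22L1 call among MSI lines was lost (adjusted p = 0.0558). Differences of duplicates correlated between lines at a median r of 0.03, with 7 of 36 pairs of lines above 0.1. Whether the numbers pair some of the lines is thus not settled. Over all genes 9 were called, with 16 after median centring or with trend and robust eBayes, 4 in replicate E1 alone, 14 in E2 alone without T84, 20 without dim genes, and 2 (without SW48) to 55 (without LS174T) when 1 line was left out, fewer by over 1.5 times also without HCT116, RKO, HCC2998 or SKCO1 and more without CACO2 or T84. The causes were not tested. The counts of probe sets that differed between lines of a status stayed within 1.5 times. The F tests of 2 _x_at probe sets of RPL22 lost their call among MSS lines when that status was fitted alone (adjusted p = 0.0697 and 0.0617). The signal of every member lay far above the median of all values. The part of background or of matches to other sequences in it was not tested.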

Other observations

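Mitochondrial ribosomal proteins, which are made from nuclear genes and serve a separate ribosome, had a median span of 1.44 log2 over the lines at a median level of 9.92, against a median span of 1.32 over all genes. Of 77 genes 52 had a difference above 0 between MSI and MSS lines, 0 were called by limma, and 9 were higher and 1 was lower at an unadjusted p under 0.05. Over all 19775 genes 12718 had a difference above 0, and 1337 were higher and 595 lower at that p. MRPS21, MRPS35 and MRPS30 differed most, by 1.20, -1.13 and 0.76 log2 (adjusted p = 0.493, 0.267 and 0.244, limma). Of the 77, MRPS30 and MRPL34 separated the groups, with all MSI lines higher. Among all 19775 genes, all MSI lines were higher for 394 and lower for 118, which is 2.59% in either direction.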
